A study of Mus musculus with 2 samples.

Results

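The 8 genes described here carry dietary sugar from the lumen into the absorptive cell of the small intestine. They are 4 disaccharidases (Sis, Lct, Mgam and Treh), 3 hexose transporters (Slc5a1, Slc2a2 and Slc2a5) and the fructose kinase Khk. They were taken by name, for their known roles, from the 27998 genes listed, and were read in 10 annotated cell types. All 8 were detected in both libraries.

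The libraries are droplet single-cell RNA-seq of jejunal crypt cells from miR-375 knockout mice (375KO), all male, aged 12 months and labelled as strain C57BL6/2J. The deletion of miR-375 had been made in the whole body by CRISPR/Cas9, and the line had been backcrossed to B6 albino mice. Both libraries, set 1 (replicate 1) and set 2 (replicate 2), carried that deletion, and no wild-type library was read, so nothing below is a comparison of genotypes. Each library came from a separate mouse, as named in the deposited annotation. The spread between libraries therefore holds differences between animals and between preparations, which cannot be told apart. Crypts were isolated and digested with dispase, so the enterocytes are those that came with the crypt preparation.

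Starch and sugars are finished off at the brush border, the microvillus surface of the enterocyte. Sucrase-isomaltase (Sis) splits sucrose and the branch points of starch, maltase-glucoamylase (Mgam) releases glucose from maltose and short starch chains, lactase (Lct) splits milk sugar, and trehalase (Treh) splits the fungal and insect sugar trehalose. Glucose and galactose then enter with sodium through SGLT1 (Slc5a1), fructose enters through GLUT5 (Slc2a5), and GLUT2 (Slc2a2) passes hexoses on toward the blood, while ketohexokinase (Khk) traps fructose by phosphorylation. Enterocytes arise from crypt stem cells through dividing transit-amplifying (TA) cells and take up these functions as they leave the crypt.

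The 8 genes lie apart in the mouse genome, on 6 chromosomes (mm10, GENCODE M21): Sis at chr3:72888557-72967863 on the minus strand, Lct at chr1:128284756-128328318 (minus), Mgam at chr6:40628831-40769123 (plus), Treh at chr9:44673233-44686305 (plus), Slc5a1 at chr5:33104219-33162870 (plus), Slc2a2 at chr3:28697903-28731359 (plus), Slc2a5 at chr4:150119283-150144169 (plus) and Khk at chr5:30921431-30931248 (plus). The last 500 bases of their transcripts, where these 3′ libraries read, matched no transcript of another gene over 90 or more bases at 95% identity or more.

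The 250 bases before the RefSeq start were read for all 8 genes (GRCm38.p6, written 5′ to 3′ along the gene) and searched on both strands for 5 short letter strings that transcription factors of the enterocyte or of sugar response are known to prefer: CAAAGT for HNF4, TTTAT for CDX factors, AGATAA for the GATA family, CACGTG for the E-box that ChREBP also reads, and TATAAA for the TATA box, which overlaps the reverse complement of the CDX string. Those of Sis, Lct, Mgam and Slc2a2 are shown, since Sis, Lct and Slc2a2 gave the extremes of the cell type patterns below and Mgam is the broadly detected relative of Sis. Capitals mark the letters of any of the 5 strings. They lie at chr3:72967864-72968113 (Sis, minus strand), chr1:128328319-128328568 (Lct, minus strand), chr6:40628581-40628830 (Mgam, plus strand) and chr3:28697653-28697902 (Slc2a2, plus strand).
Sis: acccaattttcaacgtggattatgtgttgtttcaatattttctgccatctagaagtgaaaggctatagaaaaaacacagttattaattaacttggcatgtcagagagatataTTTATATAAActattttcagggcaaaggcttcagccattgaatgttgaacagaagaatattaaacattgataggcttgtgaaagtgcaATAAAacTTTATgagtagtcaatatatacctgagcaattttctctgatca
Lct: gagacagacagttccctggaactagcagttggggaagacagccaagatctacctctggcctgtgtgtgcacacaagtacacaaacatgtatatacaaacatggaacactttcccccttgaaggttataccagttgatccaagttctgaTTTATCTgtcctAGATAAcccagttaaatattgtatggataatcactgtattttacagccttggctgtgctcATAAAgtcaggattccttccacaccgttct
Mgam: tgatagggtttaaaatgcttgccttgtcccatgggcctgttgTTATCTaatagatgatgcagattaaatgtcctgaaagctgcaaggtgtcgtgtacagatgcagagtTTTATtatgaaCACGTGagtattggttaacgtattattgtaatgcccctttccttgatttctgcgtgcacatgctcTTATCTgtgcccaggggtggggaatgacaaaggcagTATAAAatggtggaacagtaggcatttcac
Slc2a2: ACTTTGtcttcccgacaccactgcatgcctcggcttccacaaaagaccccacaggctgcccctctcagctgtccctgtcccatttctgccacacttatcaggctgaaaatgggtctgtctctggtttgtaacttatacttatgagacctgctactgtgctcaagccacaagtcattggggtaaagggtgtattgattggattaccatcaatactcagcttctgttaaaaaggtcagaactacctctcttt

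The CDX string stood in 3 of the 8 windows (Sis, Lct and Mgam) and in 37.3% of all 32851 RefSeq windows of the same length. The E-box stood in 3 (Mgam, Slc5a1 and Khk, against 6.02% of all windows). Each of the other 3 strings stood in 2: HNF4 in Treh and Slc2a2 (12.6% of all windows), GATA in Lct and Mgam (9.99%), and the TATA box in Sis and Mgam (12.4%). Slc2a5 held none of the 5. These are matches of letters in a short window and were not tested as binding sites.

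The authors had kept 2082 cells in replicate 1 and 1193 in replicate 2, holding 44017234 and 22163354 unique molecular identifiers (UMIs, each standing for 1 captured RNA molecule), and the 2 libraries shared 0 barcodes. The median share of mitochondrial reads was 10.2% in replicate 1 and 5.55% in replicate 2. Of 48 marker genes listed for 8 cell classes, 43 were highest in their own annotated class in both libraries, the exceptions being Krt20, Ascl2, Mcm5, Pcna and Stmn1. The enterocyte genes Fabp1, Fabp2, Apoa1 and Apoa4, were at 0 UMIs in the Paneth cells of both libraries, among 3515066 and 4363692 UMIs, while Fabp1 stood at 19464 and 8640 CPM in the enterocytes. The study removed free RNA with SoupX without saying which deposited matrices this covers, so a 0 below may reflect that step as well as depth, and its part was not tested. Levels are given as CPM, the counts per 1000000 UMIs of all genes in the cells of 1 type and library. They are compared between cell types and not between genes, since a 3′ UMI count also depends on how each transcript is captured.

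All 8 genes were highest in the annotated enterocytes when the libraries were averaged, and for 7 of them the lower enterocyte library lay above both libraries of every other cell type. The exception was Slc2a5, for which the enteroendocrine cells (EEC, hormone-secreting cells) came close. Among the disaccharidases, Sis reached 2359 CPM in the enterocytes of replicate 1 and 1107 CPM in those of replicate 2. Its next levels were 596 and 306 CPM in EEC and then 240 and 53.3 CPM in TA cells. Sis was at 35.3 and 14.3 CPM in stem cells and at 13.0 and 9.39 CPM in goblet cells, the mucus-secreting cells. From TA cells down to stem cells each type overlapped with its neighbour in the order. In Paneth cells, which secrete antimicrobial peptides at the crypt base, it was at 0 UMIs in both libraries, which allows up to 0.853 and 0.687 CPM by counting error alone.

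Lct was close to restricted to enterocytes, with 239 and 214 CPM (227 ± 17.3, SD, n = 2). In the 9 other types it had from 0 to 12 UMIs per library, and the highest of these levels was 15.2 CPM in the secretory progenitors of replicate 1, from 7 UMIs. Treh had the same form, with 119 and 75.7 CPM in enterocytes and at most 4.86 CPM elsewhere. In both Lct and Treh each of these 9 types overlapped with its neighbour in the order.

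**Figure D1:**
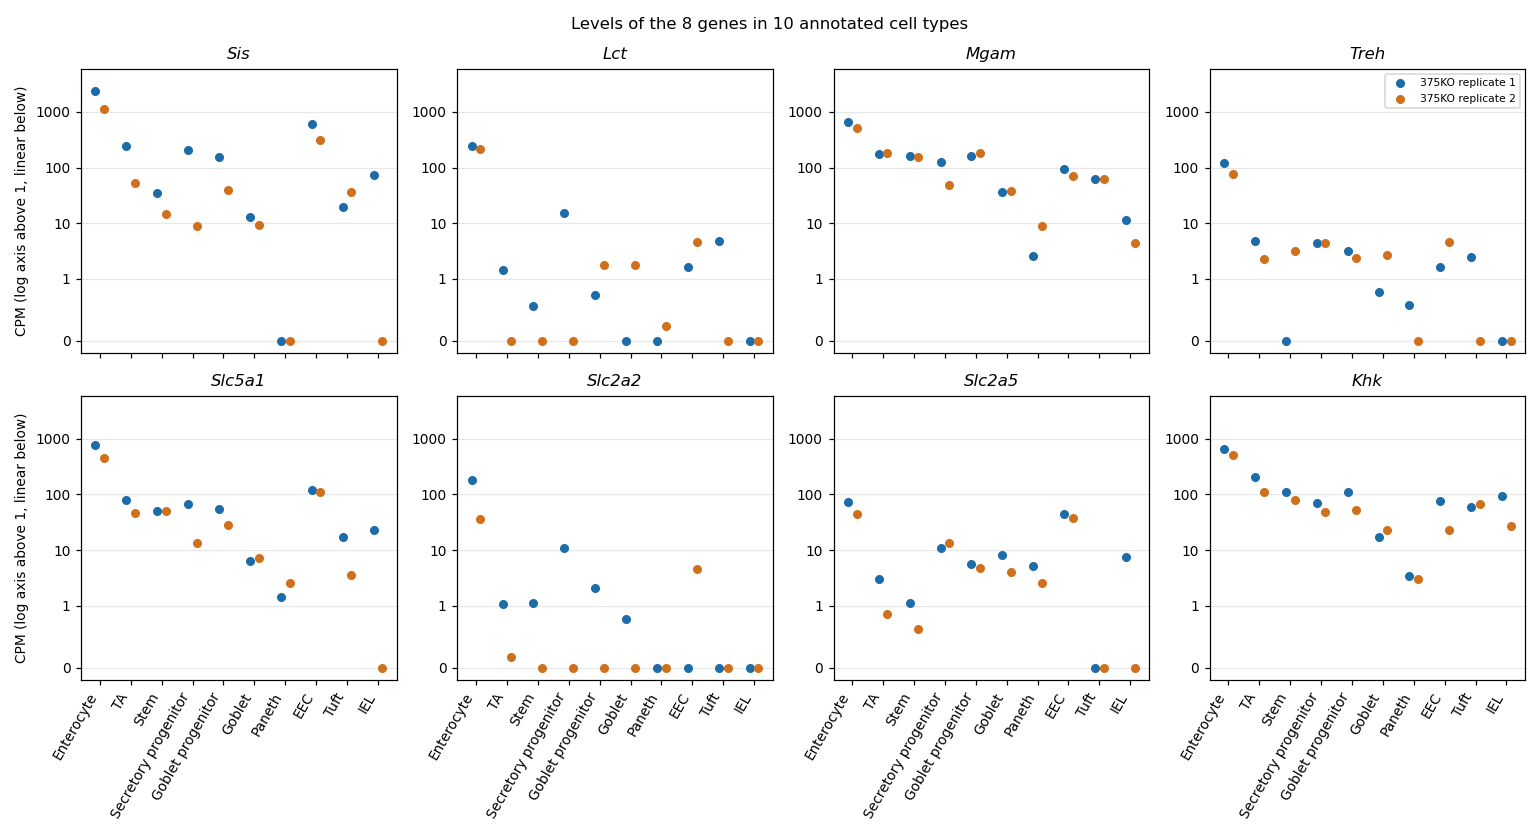
Levels of the 8 genes in CPM (vertical axis, logarithmic above 1 and linear below) in 10 annotated cell types, with 1 point per library. Mgam, Slc5a1 and Khk have points well above 0 in most types, while Lct, Treh and Slc2a2 stand high only in enterocytes, and Sis and Slc2a5 have a second high point in EEC.

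Mgam was spread far more widely than the other disaccharidases. It stood at 656 and 519 CPM in enterocytes, 175 and 183 CPM in TA cells, 159 and 181 CPM in goblet progenitors and 159 and 151 CPM in stem cells. TA cells, goblet progenitors and stem cells overlapped along that order. Mgam was lower in goblet cells (36.5 and 38.4 CPM) and lowest on average in Paneth cells (2.56 and 8.94 CPM). The Paneth values overlapped with those of the intraepithelial lymphocytes (11.4 and 4.44 CPM). Within the stem cell sums Mgam made up 44.3% and 50.6% of the UMIs of the 8 genes together and Sis 9.83% and 4.79%, whereas in enterocytes Mgam made up 13.0% and 17.5% and Sis 46.6% and 37.4%.

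The transporters differed from each other in their spread. Slc5a1 reached 776 and 455 CPM in enterocytes, then 121 and 111 CPM in EEC, 80.5 and 47.2 CPM in TA cells and 51.0 and 49.9 CPM in stem cells. Slc2a2 was at 181 and 36.8 CPM in enterocytes and at no more than 10.9 CPM elsewhere, with 0 UMIs in the tuft, Paneth and intraepithelial lymphocyte (IEL) sums of both libraries. Slc2a5 was at 74.0 and 45.1 CPM in enterocytes and at 45.1 and 37.1 CPM in EEC, which overlapped, and at 0 UMIs in tuft cells of both libraries, among 413531 and 559907 UMIs. Khk followed Mgam in these types, with 655 and 510 CPM in enterocytes, 202 and 109 CPM in TA cells, 111 and 79.8 CPM in stem cells and 2.98 to 3.41 CPM in the Paneth sums. Khk and Mgam parted in IEL, where Khk was at 95.2 and 26.6 CPM, from 25 and 6 UMIs, and Mgam at 11.4 and 4.44 CPM.

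Deeper cells show more genes, so the share of cells with at least 1 UMI was also read after thinning each cell to 5000 UMIs. Sis was then found in 95.9% of enterocytes in replicate 1 (exact binomial interval 94.4% to 97.1%) and 83.5% in replicate 2 (79.4% to 87.1%). Without thinning the shares were 98.9% and 92.1%, at median depths of 16975 and 13405 UMIs. Khk was found in 91.4% and 79.3% of thinned enterocytes, Lct in 50.3% and 36.9%, and Slc2a2 in 46.1% and 14.4%. In stem cells the thinned share of Mgam was 52.9% and 49.6% and that of Sis 14.7% and 1.71%. Paneth cells, the deepest class at 44684 and 80820 UMIs per cell, gave 0% for Sis in both libraries, and the thinned IEL gave 9.09% (1 of 11 cells) and 0% (of 18 cells), 39 shallower IEL of replicate 1 having been left out. All intervals cover counting error only.

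**Figure D2:**
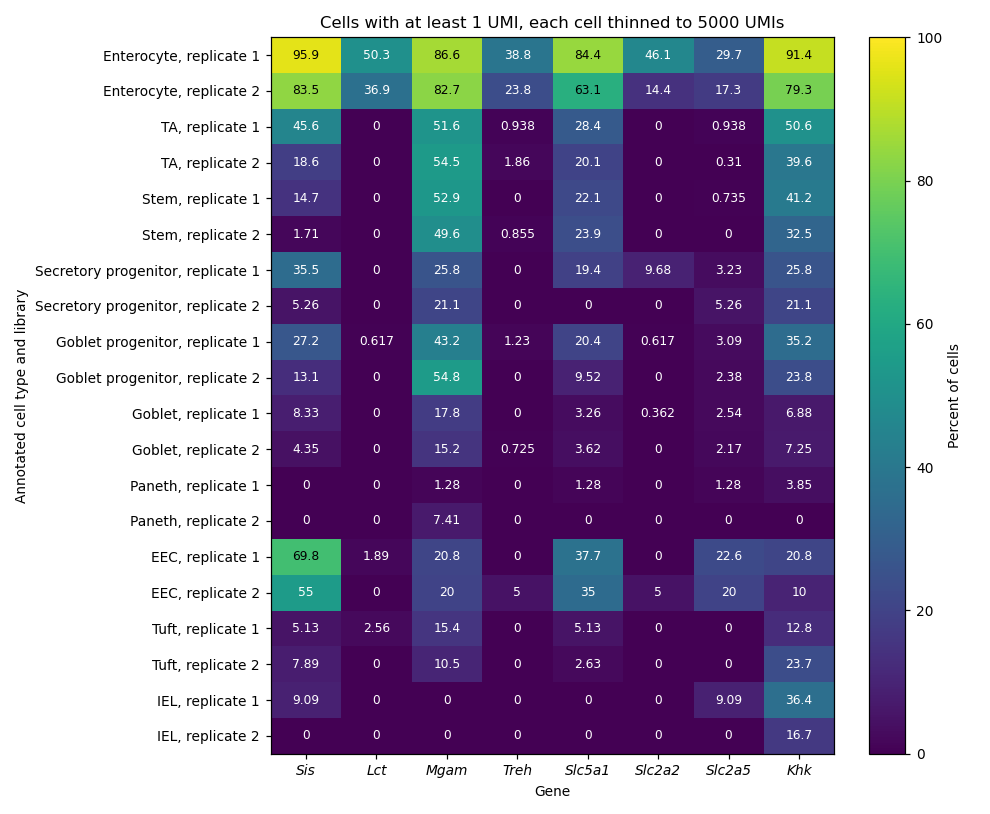
Percent of cells with at least 1 UMI of each gene (columns) by annotated cell type and library (rows), after thinning each cell to 5000 UMIs, with the colour scale from 0 to 100%. Enterocytes have the highest share for each gene, from 14.4% (Slc2a2, replicate 2) to 95.9% (Sis, replicate 1), apart from Slc2a5, whose EEC share of 20% exceeds the enterocyte share of 17.3% in replicate 2.

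To compare each step of enterocyte formation, the UMIs were summed per type and library and the 18 sums of the 9 epithelial types were fitted across 11013 genes (edgeR quasi-likelihood test with a library term, Benjamini-Hochberg adjustment). The annotation had been made by the authors from the expression of these same cells, so a p-value here says how far annotated classes stand apart and is no independent evidence. Lct, Treh and Slc2a2 passed the filter on low counts only through their enterocyte sums and so had to differ, and for them the counts are given with no test. In enterocytes against TA cells the other 5 were all called higher, by 2.13 to 5.26 on the log2 scale, where 29.1% of all genes tested were called higher and 22.6% lower, with a median of 0.06.

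Among the 5 tested genes the gap between enterocytes and TA cells was 5.26 ± 0.26 (log2, SE) for Slc2a5, 4.19 ± 0.54 for Sis (adjusted p = 0.000346) and 3.68 ± 0.25 for Slc5a1. Khk (2.35 ± 0.21) and Mgam (2.13 ± 0.31, adjusted p = 8.91e-05) had the narrowest gaps of the 5 and were already at 109 to 202 CPM in TA cells. Of the other 3, Lct had 12 and 0 UMIs in TA cells and 4628 and 1147 in enterocytes, Slc2a2 had 9 and 1 and then 3496 and 197, and Treh had 41 and 13 and then 2301 and 405. Against the mean of the other 8 epithelial types the 5 genes were again called higher, where 31.3% of all genes were. The smallest of these differences was 3.02 (Mgam), and that of Sis (6.44) is no bound, since the mean holds the Paneth sums at 0.

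**Figure D3:**
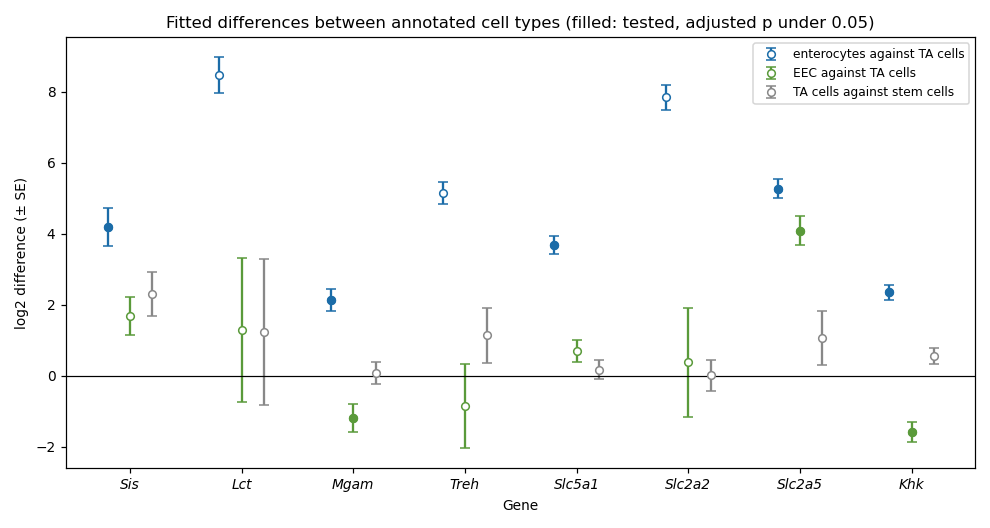
Fitted log2 differences (points, bars ± SE) of the 8 genes in enterocytes against TA cells, EEC against TA cells and TA cells against stem cells, filled where tested with an adjusted p under 0.05. Lct, Treh and Slc2a2 are drawn unfilled in the first comparison because they entered the fit only through enterocytes. The 5 filled points of that comparison lie between 2.13 and 5.26, and no point of the last is filled.

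In TA cells against stem cells none of the 5 tested genes passed, where 2.93% of all genes were called higher and 1.9% lower. Lct, Treh and Slc2a2 had too few UMIs in both types to be read as tested there. At an unadjusted p under 0.05 there were 2, Sis and Khk, and DESeq2 also called 0. Sis was 240 and 53.3 CPM in TA cells against 35.3 and 14.3 CPM in stem cells, so that the lower TA library lay above both stem cell libraries, with a log2 difference of 2.29 ± 0.62 and adjusted p = 0.0971. It was called when each cell was thinned (2.47, adjusted p = 7.23e-10) and when no filter on low counts was used (2.42, adjusted p = 4.08e-19). Sis differed 4.50-fold between the 2 libraries in TA cells, so these p-values are not read as stronger evidence than the main fit. Khk had a log2 difference of 0.55 ± 0.22 (adjusted p = 0.177). Mgam (0.08 ± 0.31) and Slc5a1 (0.17 ± 0.27) had differences smaller than their SE.

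Among the non-enterocyte types, TA cells were called higher than the mean of the other 7 for Mgam, Khk, Slc5a1 and Sis, where 20.1% of all genes were. The Sis call held in 4 of 6 alternatives. It was lost without the library term and without the Paneth sums, which held 0 UMIs of Sis. Stem cells were called higher for Mgam, Khk and Slc5a1 (14.8% of all genes), by 0.93, 0.85 and 0.91 on the log2 scale, but all 3 calls were lost without the library term and that of Slc5a1 held in 4 of 6 alternatives. Goblet progenitors were called higher for Mgam alone, by 0.94 ± 0.24 (8.89% of all genes), a call also lost without the library term. Mature goblet cells were called lower for Mgam, Slc5a1 and Khk, by -0.99, -2.06 and -1.33 (11.9% of all genes), and the Mgam call was lost without the library term. Tuft cells, rare chemosensory cells, were called lower for Slc5a1 and Slc2a5 (5.82% of all genes). These calls rest on 7 and 2 UMIs for Slc5a1 and on 0 and 0 for Slc2a5. A tuft count of 0 allows up to 7.25 and 5.36 CPM, above the 5.19 CPM median of Slc2a5 in the other 7 types. The count of either library alone therefore cannot separate Slc2a5 in tuft cells from that level. The fit takes both libraries together, and its call of Slc2a5 held in 5 of 6 alternatives.

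Some calls in these types rest on few molecules or on the scaling. The call of Slc2a2 in secretory progenitors (2.6% of all genes called higher) came from 5 UMIs in replicate 1 and 0 in replicate 2 and held in 2 of 6 alternatives. It is not read as a test, since Slc2a2 passed the filter only through its enterocyte sums. In Paneth cells 6 Paneth markers alone summed to 513019 and 406387 CPM, and the TMM factors that scaled these cells were 0.156 and 0.121. They were called higher for Slc2a5 (15.4% of all genes) and lower for Sis and Khk (11% of all genes), the Khk call holding in 2 of 5 alternatives. On the plain CPM scale, however, Slc2a5 in Paneth cells was 5.12 and 2.52 CPM, below the median of the other 7 types (5.19 CPM), so its direction there depends on the scaling. It was found in 15 of 78 and 11 of 54 Paneth cells at full depth and in 1.28% and 0% of them after thinning. Goblet cells were also called higher for Slc2a5 (18.5% of all genes), from 31 and 9 UMIs, and that call held in 2 of 6 alternatives.

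EEC had an uneven selection of the 8 genes. Sis, Slc5a1 and Slc2a5 were called higher in EEC than in the mean of the other non-enterocyte types, where 13% of all genes were, and all 3 calls held in 6 of 6 alternatives. The fitted size for Sis (4.49) is inflated by the Paneth sums at 0 and is no bound. Against TA cells, a comparison added after the data were seen, Slc2a5 was higher by 4.08 ± 0.41 (adjusted p = 4.66e-09), where 17.5% of all genes were called higher. Mgam was lower by -1.19 ± 0.40 (adjusted p = 0.0408) and Khk by -1.59 ± 0.29 (adjusted p = 0.000156), where 14% of all genes were called lower. Sis did not pass, with 1.67 ± 0.54 and adjusted p = 0.0525, although both EEC libraries (596 and 306 CPM) lay above both TA libraries (240 and 53.3 CPM). Slc5a1 did not pass either (0.68 ± 0.31, adjusted p = 0.108).

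Sis was found in 42 of 54 EEC in replicate 1 (77.8%, exact binomial interval 64.4% to 88.0%) and in 14 of 20 in replicate 2 (70%, 45.7% to 88.1%), at median depths of 7400 and 9390 UMIs. After thinning the shares were 69.8% and 55%, against 45.6% and 18.6% in TA cells. Of its 370 UMIs in replicate 1, 8 cells held more than 50%, and of its 66 in replicate 2, 1 cell held 37.9%. For comparison, the IEL of replicate 1 gave 11 of 50 cells (22%) at a median of 4110 UMIs and those of replicate 2 gave 0 of 18. Other enterocyte genes were uneven beside Sis in EEC when set against their enterocyte ratio to Sis. Fabp1 had 218 and 0 UMIs there, where the ratio of Fabp1 to Sis in enterocytes would give 3053 and 515. Lct had 1 and 1 UMIs (37.5 and 12.8 at the enterocyte ratio) and Slc2a2 had 0 and 1 (28.3 and 2.2). Slc5a1 was nearer, with 75 and 24 UMIs (122 and 27.1 at the enterocyte ratio). Slc2a5 went the other way, with 28 and 8 UMIs where that ratio would give 11.6 and 2.69. The 6 enterocyte markers summed to 1371 and 803 CPM in EEC, against 43931 and 26936 CPM in enterocytes, with Alpi, Apoa1, Apoa4 and Fabp1 at 0 in EEC of replicate 2. Krt20, also among the 6, stayed high, at 429 and 599 CPM in EEC against 501 and 480 CPM in enterocytes. Markers of other types were also found in EEC. The 6 goblet markers summed to 6635 and 2145 CPM there, and the 6 lymphocyte markers to 3.22 and 1263 CPM. The part of enterocyte RNA, or of RNA from other types, in the EEC values was not tested further. When the libraries were scaled by TMM, Slc2a5 was 73.3 and 42.0 CPM in enterocytes and 28.6 and 25.7 CPM in EEC, and the groups no longer overlapped.

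The authors' annotation holds 5 enterocyte clusters, numbered 1, 2, 3, 6 and 9, which had been made from the same cells' expression, so their differences are given as a description with no test. Cluster 1 had the highest and cluster 2 the lowest level of all 8 genes in both libraries. For Mgam the ratio of cluster 1 to cluster 2 was 3.27 in replicate 1 and 3.37 in replicate 2, and for Khk it was 2.61 and 4.62. For Sis it was 4.28 and 11.0, from 3250 and 2179 CPM in cluster 1 to 759 and 198 CPM in cluster 2. For Slc5a1 it was 9.83 and 17.2. Treh, Slc2a2 and Lct were close to absent from cluster 2. Treh was at 5.43 and 5.24 CPM in cluster 2 and at 304 and 281 CPM in cluster 1. Slc2a2 was at 4.57 and 1.31 CPM and at 394 and 159 CPM, and Lct was at 4.29 and 0 CPM and at 602 and 868 CPM.

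Clusters 6, 9 and 3 filled the space between. Lct, for example, was 44.2 and 19.0 CPM in cluster 6, 77.3 and 158 CPM in cluster 9 and 251 and 260 CPM in cluster 3. Cluster 9 had a mixed profile of enterocyte markers. Fabp1, a fatty acid carrier, stood at only 1729 and 1491 CPM there, against 8468 and 3990 CPM in cluster 6. Fabp2, another fatty acid carrier, went the other way, at 13578 and 13387 CPM against 3839 and 2336 CPM. Apoa1, Apoa4 and Krt20 were also higher in cluster 9 than in cluster 6, and Alpi differed little. Sis (2248 and 1493 CPM) and Mgam (738 and 694 CPM) were likewise higher in cluster 9 than in cluster 6. A thinned cell of cluster 1 held a median of 7 of the 8 genes, and one of cluster 2 a median of 3 in replicate 1 and 2 in replicate 2. The 8 genes were all found together in 25.2% and 19.4% of thinned cells of cluster 1 and in 0% of cluster 2.

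**Figure D4:**
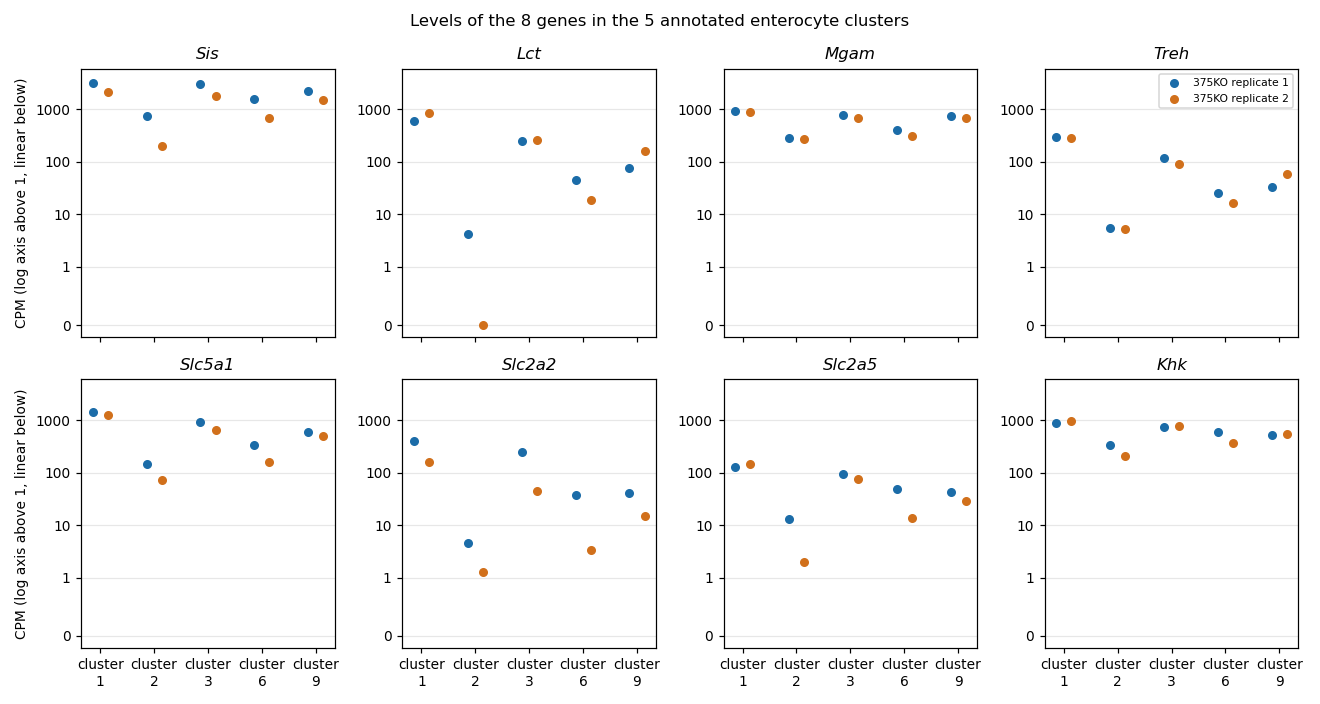
Levels of the 8 genes in CPM (vertical axis, logarithmic above 1 and linear below) in the 5 annotated enterocyte clusters, with 1 point per library. Mgam and Khk change least between clusters, while Lct, Treh and Slc2a2 drop from 159 CPM or more in cluster 1 to 5.43 CPM or less in cluster 2.

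Within single enterocytes the 28 pairs of genes were positively correlated, at Pearson's r of 0.16 to 0.64 (median 0.38) over the 930 thinned cells of replicate 1 and 0.25 to 0.72 (median 0.45) over the 382 of replicate 2. The pair Sis and Slc5a1 was the highest in both, at 0.64 and 0.72. With the cluster means removed the median fell to 0.07 and 0.13 and the Sis and Slc5a1 pair to 0.33 and 0.40. The cells of a library share its preparation and were thinned to equal depth, and these values carry no test.

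The 2 libraries differed in enterocyte level for the same genotype. Replicate 1 was higher for all 8 genes over all enterocytes, by 1.11-fold (Lct) to 4.90-fold (Slc2a2). The cluster make-up moved with this, since cluster 1 held 30.3% of enterocytes in replicate 1 and 18.8% in replicate 2, and cluster 2 held 19.7% and 28.0%. With the 5 clusters weighted alike, a calculation added after the data were seen, the ratios were 1.72 for Sis, 3.26 for Slc2a2 and 1.29 for Slc5a1. Those of Mgam, Khk, Treh and Slc2a5 lay between 1.07 and 1.21, and that of Lct turned to 0.75. Within clusters, Slc2a2 was 2.48 to 5.52 times higher in replicate 1 in the 3 clusters with enough UMIs to compare, and Sis 1.49 to 3.83 times higher in 5 of 5. The median mitochondrial share of enterocytes was 13.2% and 7.59%, and its part was not tested. With 1 library on each side there is no test of these differences.

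**Figure D5:**
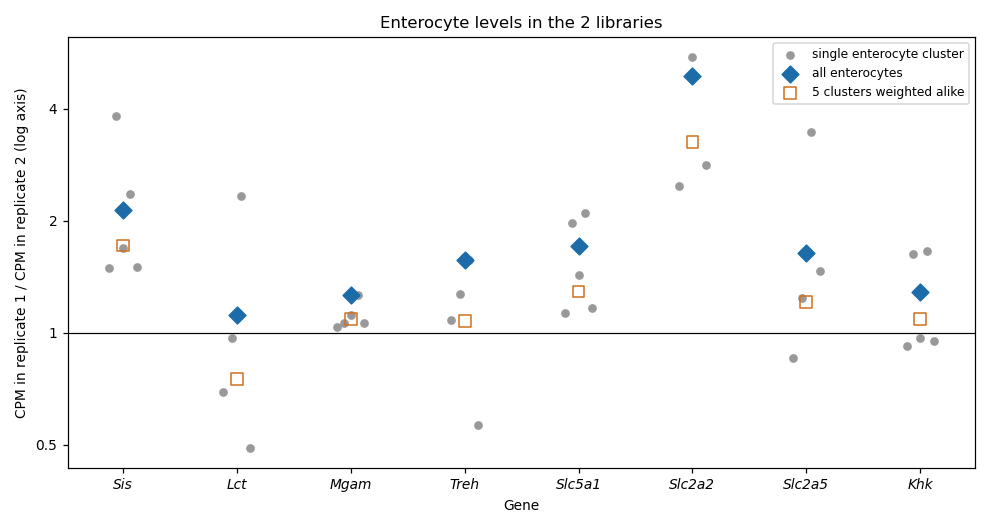
Ratio of the enterocyte level in replicate 1 to that in replicate 2 (logarithmic axis) for the 8 genes, over all enterocytes (diamonds), with the 5 clusters weighted alike (open squares) and in single clusters (grey points). Slc2a2 has all points at 2.48 or above, and Lct moves from 1.11 to 0.75 when clusters are weighted alike.

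The genes whose levels over the 10 types were most like each of the 8 were ranked among 4290 genes by the lower of the 2 libraries' Pearson's r. For Sis they were Dpyd (r of 0.95 and 0.97), Dpp4 (0.95 and 0.98), a brush border peptidase, and Apob (0.93 and 0.92). For Lct they were Gda, Leap2 and Dpep1 (0.90 to 0.92). For Mgam they included Hdhd3 (0.97 and 0.96) and Mal2 (0.95 and 0.96). For Treh they were 1700019G17Rik, Pccb and Ace (0.84 to 0.93). For Slc5a1 they were Ms4a10, Pla2g12b and Dpyd (0.91 to 0.96), and for Slc2a2 Dpep1, Pdzk1 and Ggt1 (0.87 to 0.93). For Slc2a5 the likeness was lower, with Slc43a2, an amino acid transporter (0.90 and 0.85), the peptide transporter Slc15a1 (0.88 and 0.77) and Krt20 (0.76 and 0.78). For Khk they were Prpsap1, Tkfc and Mttp (0.95 to 0.97), Tkfc being the triose kinase that acts later in the same fructose route. Each r is over 10 types that share a library.

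A list of 67 further genes of sugar handling was read by role. Of these, 66 were in the matrices and 54 could be tested. Slc5a11, Slc5a4a and G6pc passed the filter only through their enterocyte sums and so had to differ. Of the other 51, enterocytes were called higher than TA cells for 28 (54.9%) and lower for 7 (13.7%), where 29.1% and 22.6% of all genes were. The list was chosen with earlier results of these data known, so these shares only describe it. Among other hexose transporters 3 of 6 were higher, Slc2a9 (3.59), Slc5a9 (3.28) and Slc5a4b, whose likeness in sequence to Slc5a4a was not checked. The 6 galactose enzymes were all higher, from 0.48 (Pgm1) to 1.73 (Galm). In fructose and triose handling 5 of 6 were higher, with Tkfc at 2.01 and Sord at 0.83 among them, and Akr1b3 was lower (-0.50). Of 10 genes of hexose phosphorylation and glucose release 5 were higher, among them Hkdc1 (2.84) and Slc37a4 (1.73), and 2 were lower, the hexokinase Hk2 (-2.03) and Pck2 (-1.85).

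The sodium pump that drives SGLT1 was higher for its subunit gene Atp1b1 (1.60) and lower for Atp1b3 (-0.71). Of 13 transcription factors tied to the brush border programme 5 were higher, Creb3l3 (4.76), Gata5 (1.42), Hnf4g (0.98), Isx (0.67) and Gata6 (0.55), and 3 were lower, Foxa2 (-3.75), Foxa1 (-0.87) and Cdx1 (-0.47), which as shares of 13 lie near those of all genes. Hnf4a (-0.17 ± 0.16) and Cdx2 (0.25 ± 0.17) did not pass the test. In TA cells against stem cells 1 of the 54 was called higher and 3 lower, where 2.93% and 1.9% of all genes were. In EEC against TA cells 7 were called higher and 9 lower, where 17.5% and 14% of all genes were. Hk2 was among these 7, at 101.5 and 149 CPM in EEC and at 6.52 and 14.7 CPM in TA cells.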

How the data were processed

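Single-cell suspensions of jejunal crypts were sequenced with a 10x Genomics 3′ kit. The authors aligned reads to mm10 with Cell Ranger 3.0.1 and deposited UMI counts per gene and cell, a mitochondrial percent per cell, and clusters named in Seurat (3.2.1 per the labels) from marker scores. They dropped shallow cells, cells of high mitochondrial share and doublets called by scDblFinder. No further doublet call was made here. The sctransform table and the doublet table were not used, nor were 2937 cell columns of another series. The annotation and the authors' joint counts over 16751 genes agreed in UMI total for 3275 of 3275 cells. The counts read here came from the per-library matrices of 27998 genes. Those held up to 29 (replicate 1) and 262 (replicate 2) more UMIs per cell.

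UMIs were summed per type and library (at least 10 cells) and tested with edgeR 4.0.16 in R 4.3.3 (TMM scaling, filterByExpr, robust quasi-likelihood fit with type and library terms, 8 residual degrees of freedom, adjusted p under 0.05). Types of 1 library share it, so the library was kept as a block. Alternatives were DESeq2 1.42.0, no filter, no block, thinning to 5000 UMIs, cells with at least 2000 genes and at most 10% mitochondrial reads, no Paneth cells, and each library left out (prior count of 2, no test). CPM intervals are exact Poisson and shares exact binomial, at the 95% level, and a count of 0 is taken to allow 3 UMIs. The fit was tested on simulated counts. Text names the 8 genes, the 3 most alike of each (at least 50 CPM in 1 type) and listed sugar genes. Genes and lists were chosen with earlier results of these data known. Some genes of the lists and 1 motif are not reported here.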

Additional observations from a re-analysis of the deposited data

How the results depend on the processing

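All 8 genes stayed higher in enterocytes than in TA cells, and than in the other epithelial types, under DESeq2, no filter, no library block, thinning, the stricter cell filter and the fit without Paneth cells, and in either library alone. Lct, Treh and Slc2a2 had to differ there, having passed the filter only through enterocytes. With 1 library left out the enterocyte and TA difference was 3.80 to 4.66 for Sis and 1.80 to 2.41 for Mgam. The stricter filter kept 148 of 931 and 307 of 382 enterocytes and lowered the difference of Sis from 4.19 to 3.38 and that of Mgam from 2.13 to 1.40.

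Other counts moved, and the cause was not tested. In TA against stem cells the number of the 8 genes called higher went from 0 to 2 with no filter and to 1 with thinning, and the genes called overall went from 532 to 834 with no filter and to 70 with no block. Without the block the genes called went from 5694 to 2843 for enterocytes against TA cells, from 6006 to 3946 against the other types, and from 3471 to 1897 for EEC against TA cells, and 3568 were called against the other types after thinning, which tests fewer genes. The calls of a higher level over all non-enterocyte types, that of Slc2a2 in secretory progenitors included, went from 14 to 7 without the block. In EEC against TA cells, Sis joined Slc2a5 (2 called higher) with no filter and with thinning, and 1 gene in place of 2 was called lower without the block, Mgam being lost at adjusted p = 0.0734. Between TA and stem cells 3 differences changed sign, Mgam with thinning (-0.12) and Slc2a2 with the stricter filter (-0.75) and without Paneth cells (-0.0016), all from values that had not been called. EEC sums of 20 and 54 cells limit what can be seen there.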
